A study of Mus musculus with 4 samples.

Results

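The cells described here were tumor-infiltrating cells with the transcripts of gamma-delta T cells. They were chosen from their raw unique molecular identifiers (UMIs, each standing for 1 captured RNA molecule): a kept barcode entered when Cd3d, Cd3e and Cd3g summed to 2 UMIs or more, Trdc and Tcrg-C1 to 1 or more, and C1qa, C1qb and C1qc to no more than 2, with 0 UMIs of Trac, Cd4, Cd8a, Cd8b1 and Foxp3. Kept barcodes had 300 genes or more, a minimum of 500 UMIs, and mitochondrial UMIs of up to 20%. The rule found 114 cells among 56088 kept cells, which were 11 in WT B16F10, 32 in Lrrc25-/- B16F10, 13 in WT MC38 and 58 in Lrrc25-/- MC38. These counts chose the members, so the genes of the rule are given as a description only.

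The study compared tumors grown in wild-type (WT) mice and in mice lacking Lrrc25, a leucine-rich repeat membrane protein found mainly on myeloid cells. The 2 tumor models were B16F10, a mouse melanoma line taken at day 14, and MC38, a mouse colon carcinoma line taken at day 26. In each of the 4 groups the tumors of 3 mice were pooled, bead-selected CD45+ cells were mixed 5 to 1 with the unselected suspension, and 1 droplet 3′ library was made, with no other treatment named. The labels give no sex, age or strain, and the deletion is carried by the whole host, while the implanted tumor line is the same in both genotypes of a model.

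Gamma-delta T cells carry an antigen receptor built from gamma and delta chains in place of the alpha and beta chains of conventional T cells. In the mouse, part of this lineage is programmed in the thymus to make interleukin-17A and is kept responsive to interleukin-23 and interleukin-1, while another part makes interferon-gamma and cytotoxic granules. Both kinds occur in solid tumors, and the interleukin-17 kind is known for drawing in and shaping myeloid cells.

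The 4 libraries held 10490 to 18545 barcodes and 105338548 to 138841749 UMIs each, and 2.85% to 3.15% of a library's barcodes also occurred in another library, though 0 barcodes of the 114 cells did. Lrrc25 itself was checked in macrophages (C1q sum of 10 or more, no Cd3 UMI), where it stood at 141 CPM (the UMIs of a gene summed over a class, scaled to 1000000 UMIs of that class) in WT B16F10, 4.63 in Lrrc25-/- B16F10, 90.1 in WT MC38 and 1.98 in Lrrc25-/- MC38. The gamma-delta T cells held 1 Lrrc25 UMI in all. Depth within these cells was modest: their summed UMIs were 25344, 95160, 40209 and 188800 in the order above, so 3 UMIs, the limit that a count of 0 allows, correspond to 118, 31.5, 74.6 and 15.9 CPM. The median was 2606.5 UMIs per cell, against 4785.5 in CD8 T cells, 3511.5 in conventional CD4 T cells and 3553 in NK cells.

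Receptor transcripts came first. Trdc, the delta constant gene (GENCODE annotation of GRCm38, chr14:54142851-54148868, plus strand), had 439 UMIs in 101 of the 114 cells, with 22, 175, 25 and 217 UMIs in WT B16F10, Lrrc25-/- B16F10, WT MC38 and Lrrc25-/- MC38. Tcrg-C1, a gamma constant gene (chr13:19214103-19217024, plus strand), had 183 UMIs in 61 cells, and 13 cells entered through Tcrg-C1 alone. Trac (chr14:54220521-54224206) lies downstream of Trdc on the same strand, and the rule held it at 0. The other gamma constant genes were sparser, with 33 UMIs of Tcrg-C4 in 21 cells, 18 of Tcrg-C2 in 17 cells and 0 of Tcrg-C3.

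Among the variable segments, Trdv4 (chr14:54074905-54075515, an annotated delta V gene) gave the most UMIs. It had 0, 18, 6 and 118 UMIs in WT B16F10, Lrrc25-/- B16F10, WT MC38 and Lrrc25-/- MC38, in 43 cells, and the 0 of WT B16F10 is below what 3 UMIs would show there. The gamma V segments gave few UMIs in a 3′ library: 10 for Trgv2, 4 for Tcrg-V6, 3 for Tcrg-V1, 2 for Tcrg-V4 and 0 for Tcrg-V3, Tcrg-V5 and Tcrg-V7. All 4 Tcrg-V6 UMIs lay in cells that also held Trdv4. CD8 T cells held 0 Trdv4 UMIs in all 4 libraries, which puts the gamma-delta T cells at least 1478-fold higher against a floor of 3 UMIs over the class. The CD8 T cells were gated at 0 UMIs of Trdc, the constant gene of the delta chain, so this difference is partly set by the gates. NK cells, gated without a limit on Trdc, had 31 Trdv4 UMIs (14.3 CPM, against 406 in the gamma-delta T cells).

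Beta chain transcripts were also present. Trbc1 had 152 UMIs and Trbc2 166, and 22 of the 114 cells had neither. Trbc2 stood at 475 CPM in the gamma-delta T cells, 1164 in CD8 T cells, 834 in CD4 T cells and 176 in NK cells. In edgeR's quasi-likelihood test with Benjamini-Hochberg adjustment, Trbc2 was lower than in CD8 T cells (log2 fold -1.64, SE 0.21, adjusted p = 1.33e-12), higher than in NK cells (log2 fold 1.39, SE 0.37, adjusted p = 0.00869) and not called against CD4 T cells (log2 fold -0.68, SE 0.23, adjusted p = 0.122). Both Trbc2 calls were lost in a fit without the library as a block, and both held with the DESeq2 Wald test. Trbc1 stood at 435 CPM, against 505 in CD8 T cells, 482 in CD4 T cells and 383 in NK cells. It was called against none of them (log2 folds -0.48, -0.11 and 0.12, edgeR adjusted p = 0.385, 0.928 and 0.953). Trac being 0 in a cell of this depth does not show that the cell lacks an alpha chain, so conventional T cells whose Trac was missed can be among the members. Themis, a signaling protein of alpha-beta T cell selection, was nearly absent, with 6 UMIs in 3 cells (17.2 CPM, against 403 in CD8 and 301 in CD4 T cells).

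The cells at the edges of the rule show what it separated. The 24 members with exactly 1 UMI of Trdc and Tcrg-C1 together had an Il17a UMI in 20.8% of cells, and the 90 with 2 or more in 47.8%. Just outside, 362 otherwise matching cells with 0 such UMIs had Il17a in 0.829%. Another 29 cells that failed only through 1 Trac UMI had Il17a in 44.8% and Trdv4 in 51.7%, close to the members, and the 18 cells that failed through 1 Cd3 UMI had Il17a in 22.2%.

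Il17a, the gene of interleukin-17A, was not used by the rule, although it is one of the 4 markers (Trdc, Tcrg-C1, Cd163l1 and Il17a) by which the cell type is labelled. It had 18, 150, 20 and 296 UMIs in WT B16F10, Lrrc25-/- B16F10, WT MC38 and Lrrc25-/- MC38, which is 710, 1576, 497 and 1568 CPM. CD8 T cells held 10.4, 1.64, 0 and 0.549 CPM in the same libraries, CD4 T cells 5.55, 49.1, 0 and 9.30, and NK cells 0 in all 4. The gamma-delta T cells were thus above the other 3 classes in every library. Il17a UMIs were found in 48 of 114 cells (42.1%, exact 95% binomial interval 32.9% to 51.7%), against 3.23% of CD4 T cells, 0.277% of CD8 T cells and 0.0758% of macrophages, a class that should lack the gene and has a median of 6679 UMIs per cell. With each cell thinned to 1000 UMIs, the share was 31.2% of 112 cells and 0.00952% of 21001 macrophages. Intervals and floors here and below cover counting error only.

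Il17a UMIs were uneven among the cells: the median cell with Il17a held 4 UMIs and the highest 86, and the 3 highest cells gave 40.9% of the 484 UMIs. In the 2 WT pools all Il17a UMIs came from 3 and 2 cells. Over the whole data, 47.9% of the 1010 Il17a UMIs in kept cells lay in the 114 members, 16.7% in other CD3+ cells with a Trdc or Tcrg-C1 UMI, 13.9% in CD3+ cells with neither and 21.5% in cells outside the CD3+ gate.

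The promoters of Il17a, Il17f, Il23r and Cd163l1 are shown because these genes were among those higher in gamma-delta T cells than in all 3 comparison classes. The windows are RefSeq sequences of GRCm38.p6, 250 bases before to 50 after each gene's start, written 5′ to 3′ along the gene, with AGGTCA or its reverse complement TGACCT in capitals. AGGTCA is the core half-site bound by many nuclear receptors, among them the one encoded by Rora.
Il17a, chr1:20730655-20730954, plus strand: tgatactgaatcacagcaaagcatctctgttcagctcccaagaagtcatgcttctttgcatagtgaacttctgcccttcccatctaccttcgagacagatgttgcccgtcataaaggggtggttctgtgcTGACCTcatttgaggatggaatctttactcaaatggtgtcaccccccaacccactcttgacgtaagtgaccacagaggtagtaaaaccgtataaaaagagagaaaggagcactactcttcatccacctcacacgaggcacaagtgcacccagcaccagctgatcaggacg
Il17f, chr1:20784221-20784520, minus strand: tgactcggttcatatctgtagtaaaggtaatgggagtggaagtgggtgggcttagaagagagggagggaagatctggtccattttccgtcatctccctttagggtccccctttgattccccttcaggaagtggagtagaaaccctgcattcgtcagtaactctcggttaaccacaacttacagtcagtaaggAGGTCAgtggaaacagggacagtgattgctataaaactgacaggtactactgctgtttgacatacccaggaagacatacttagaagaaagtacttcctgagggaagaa
Il23r, chr6:67491806-67492105, minus strand: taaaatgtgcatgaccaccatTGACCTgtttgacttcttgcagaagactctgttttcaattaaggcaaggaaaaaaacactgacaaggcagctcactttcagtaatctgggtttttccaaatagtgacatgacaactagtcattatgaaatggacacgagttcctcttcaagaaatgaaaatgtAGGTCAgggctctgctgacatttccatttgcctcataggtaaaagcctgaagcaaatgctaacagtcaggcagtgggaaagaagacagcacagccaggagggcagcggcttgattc
Cd163l1, chr7:140218017-140218316, plus strand: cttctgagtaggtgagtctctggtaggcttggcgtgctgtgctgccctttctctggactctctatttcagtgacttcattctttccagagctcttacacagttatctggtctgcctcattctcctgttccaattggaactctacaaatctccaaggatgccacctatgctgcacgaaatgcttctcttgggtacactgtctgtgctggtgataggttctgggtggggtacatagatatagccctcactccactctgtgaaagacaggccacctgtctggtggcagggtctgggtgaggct
The hexamer began 120 bases before the start in Il17a, 58 before it in Il17f, and 229 and 66 before it in Il23r, with no match in the Cd163l1 window. On either strand it occurs in 5340 of 32851 promoter windows of this length (16.3%), and in 9 of 35 windows of the IL-17 program genes (25.7%), which belong to 7 of the 24 genes with a window. Such a match is a description of the letters and not a measured binding site.

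The class comparisons used the 2 Lrrc25-/- libraries, because only they held at least 20 gamma-delta T cells. UMIs were summed per library and class, with the library as a block, which leaves 1 residual degree of freedom. CD8 T cells were CD3+ with Trac and Cd8a or Cd8b1 UMIs and without Cd4, Foxp3 or Trdc. CD4 T cells were CD3+ with Trac and Cd4 and without Cd8a, Cd8b1, Foxp3 or Trdc. NK cells had Ncr1 or Klrb1c and no UMI of the Cd3 genes, Trac, Cd4, Cd8a or Cd8b1. Each class kept the C1q limit of the rule. The T cell gates did not exclude Ncr1 or Klrb1c, and the NK gate did not exclude Trdc or Tcrg-C1. At an adjusted p under 0.05, 460 of 8974 genes tested (5.13%) differed from CD8 T cells, 198 of 4142 (4.78%) from CD4 T cells and 229 of 3570 (6.41%) from NK cells. Of the 3434 genes tested in all 3, 56 were higher in gamma-delta T cells every time (1.63%) and 5 lower every time (0.146%). These counts include genes of the gates, and they fell to 46, 23 and 32 with no library block. A fit of all 4 libraries called 497 (7.52%), 152 (5.12%) and 259 (8.02%) genes, and without Lrrc25-/- B16F10 that fit called 237, 100 and 345, without Lrrc25-/- MC38 189, 78 and 86. Without WT B16F10 it called 118 against CD4 T cells.

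The IL-17 program was read on a list of 30 genes known from interleukin-17-producing gamma-delta T cells. Against CD8 T cells 21 of the 24 genes tested were higher and 0 lower, where 2.59% of all genes tested were higher. The counts were 15 of 22 against CD4 T cells (2.63% of all genes) and 19 of 23 against NK cells (4.09%), with 0 lower in each. Of the 19, 7 (Il17a, Il17f, Il23r, Il1r1, Cd163l1, Blk and Aqp3) had 0 NK cell UMIs in both fitted libraries, so they could enter the fit only through the gamma-delta T cells, and all 7 lost that call with the DESeq2 Wald test. Il17a, Il17f, Il23r, Il1r1, Cd163l1 and Blk had 0 to 6 UMIs in each fitted CD8 T cell library. Cd163l1, Blk and Il17f had 0 to 2 in each fitted CD4 T cell library. Actn2 had 0 and 1 in the fitted NK cell libraries. The entry of these genes into those fits also rested on the gamma-delta T cells. The counts against CD8 T, CD4 T and NK cells are thus partly set by the filter on low counts. With no library block the list had 12, 6 and 9 higher genes against CD8 T, CD4 T and NK cells, and with the DESeq2 Wald test 20, 13 and 11, again with 0 lower. The median log2 fold of the list was 3.82, 2.87 and 3.03, beside -0.16, -0.03 and -0.05 over all genes tested; placing the genes at 0 UMIs in a comparison class at their lower bound left these medians unchanged. The list and its members were drawn up with results of these data known.

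**Figure D1:**
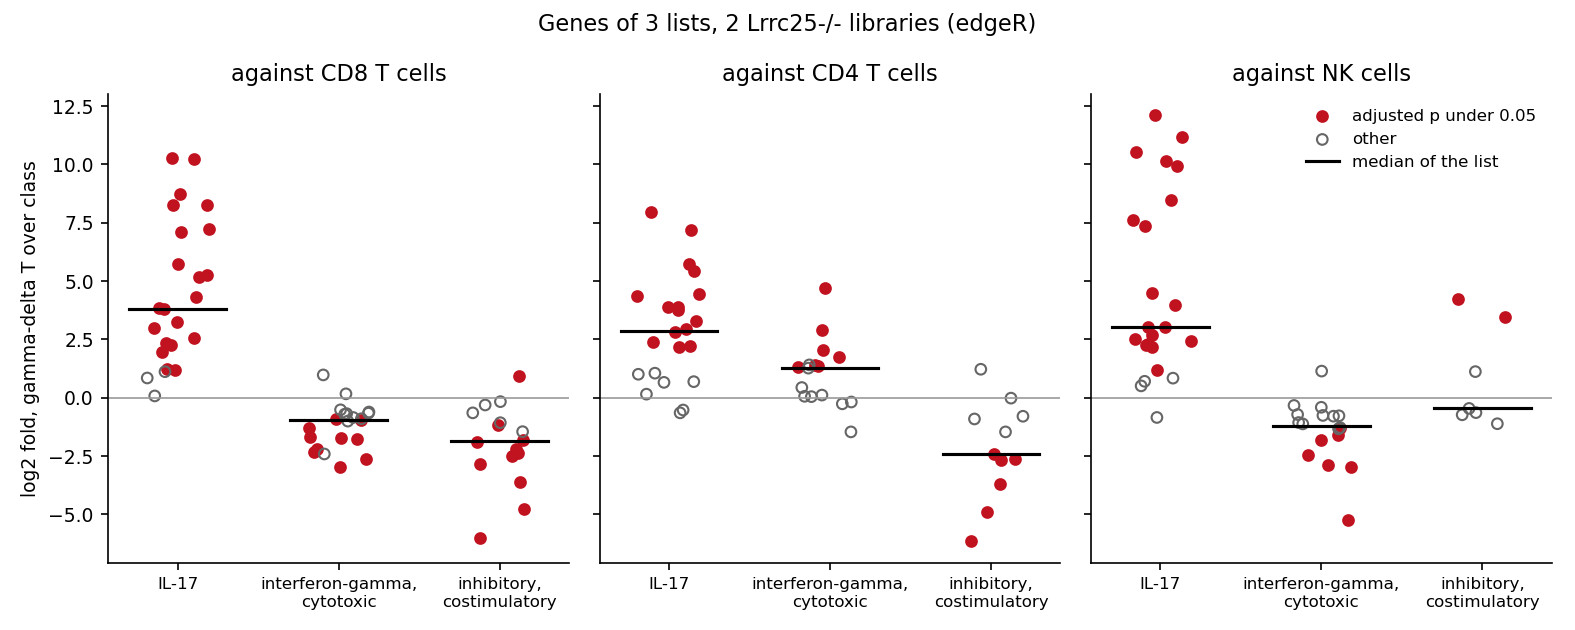
Log2 fold of gamma-delta T cells over CD8 T, CD4 T and NK cells (y axis) for the tested genes of 3 lists (x axis), from edgeR fits of the 2 Lrrc25-/- libraries. Filled points passed an adjusted p of 0.05, open points did not, and bars are list medians; the IL-17 list lies mostly above 0 in all 3 panels, with medians of 3.82, 2.87 and 3.03, while the interferon-gamma and cytotoxic list has medians of -0.96 and -1.20 against CD8 T and NK cells.

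Secreted products within the program were Il17a and its neighbor Il17f. Il17a was higher than in CD8 T cells by a log2 fold of 10.27 (SE 0.36, adjusted p = 7.94e-165) and than in CD4 T cells by 5.73 (SE 0.37, adjusted p = 1.26e-08) in edgeR's test, and at least 1001-fold higher than in NK cells, which held 0 UMIs. Il17f, for interleukin-17F, had 1, 13, 1 and 23 UMIs in WT B16F10, Lrrc25-/- B16F10, WT MC38 and Lrrc25-/- MC38, in 10 cells, 9 of which also held Il17a. It was higher than in CD8 T cells by 7.12 (log2, SE 0.72, edgeR adjusted p = 2.75e-20) and than in CD4 T cells by 4.43 (SE 0.62, adjusted p = 0.000156). Il22, for the epithelial cytokine interleukin-22, had 22 UMIs, of which 21 lay in 1 Lrrc25-/- B16F10 cell.

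Receptors for the cytokines that sustain this program followed. Il23r, the interleukin-23 receptor chain, stood at 39.5, 179, 572 and 996 CPM in WT B16F10, Lrrc25-/- B16F10, WT MC38 and Lrrc25-/- MC38. CD8 T cells had 0 to 3.19 CPM of it and CD4 T cells 2.46 to 48.8 over the libraries, so the lowest gamma-delta pool, with 1 UMI, overlapped the CD4 range and the others did not. Il1r1, the interleukin-1 receptor, had 0, 7, 1 and 92 UMIs in the same order and was concentrated in Lrrc25-/- MC38 (487 CPM, 25 of 58 cells). In edgeR's test they were higher than in CD8 T cells by log2 folds of 8.75 (Il23r, SE 0.50, adjusted p = 4.74e-65) and 10.23 (Il1r1, SE 0.68, adjusted p = 6.67e-47), and both were also called against CD4 T cells. NK cells held 0 UMIs of either, which is at least 474-fold lower for Il23r and at least 207-fold lower for Il1r1, and the edgeR calls against NK cells were among those lost with the DESeq2 Wald test. Il7r, the receptor that supports survival of these cells, was higher than in CD8 T cells (log2 fold 1.21, SE 0.31, edgeR adjusted p = 0.00376) and NK cells (log2 fold 3.99, SE 0.41, adjusted p = 8.40e-12); the call against CD8 T cells was lost when WT B16F10 or either Lrrc25-/- library was left out of the 4-library fit.

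Surface and signaling genes of the lineage were as sharp. Cd163l1, a scavenger receptor also known as SCART1, had 10, 37, 6 and 104 UMIs (395, 389, 149 and 551 CPM) in 60 cells, while the 3 comparison classes stayed at 0 to 5.55 CPM in every library. Blk, a Src-family kinase needed for interleukin-17-producing gamma-delta T cells, had 11, 17, 3 and 73 UMIs in the same order, and the other classes again stayed low, at 0 to 3.99 CPM. In edgeR's test Cd163l1 was higher than in CD8 T cells by 8.24 (log2, SE 0.47, adjusted p = 7.39e-65) and Blk by 8.25 (SE 0.54, adjusted p = 3.07e-48). Igf1r, the insulin-like growth factor receptor, stood at 78.9, 189, 448 and 1192 CPM, above every comparison class in each library (3.80 to 89.9 CPM). Actn2, Aqp3, Krt83, Ramp1, Serpinb1a, Tmem176a and Tmem176b were also called higher against all 3 classes. Of these, Krt83 lost its call against NK cells with marked doublets removed or without either B16F10 library in the 4-library fit, Tmem176b lost it without Lrrc25-/- MC38, and Serpinb1a lost its call against CD4 T cells without Lrrc25-/- B16F10. With no library block, only Actn2 among them kept its call against CD4 T cells, and only Actn2 and Aqp3 against NK cells. Serpinb1a, Tmem176a and Tmem176b then also lost their calls against CD8 T cells. Aqp3 was not called against CD4 T or NK cells with the DESeq2 Wald test.

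**Figure D2:**
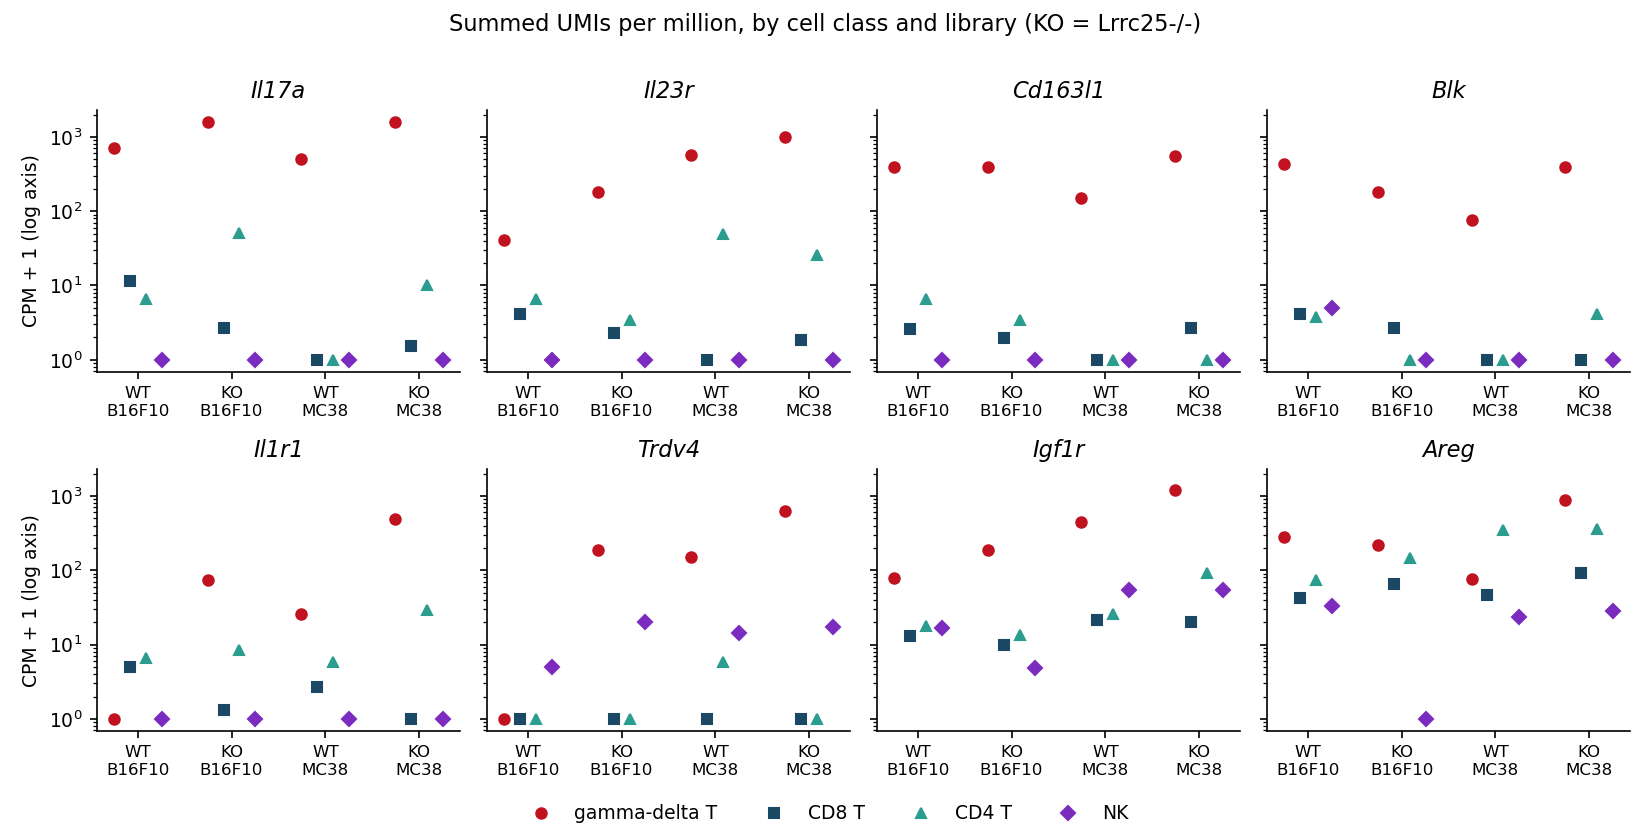
CPM plus 1 (log axis) of 8 genes in gamma-delta T cells, CD8 T cells, CD4 T cells and NK cells, by library (x axis; KO is Lrrc25-/-), 1 point per class and library. Il17a, Cd163l1 and Blk in gamma-delta T cells lie above the other classes in all 4 libraries; Il1r1 and Trdv4 are at 0 in the WT B16F10 pool, and Areg is below CD4 T cells in WT MC38.

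Transcription factors of the program were captured unevenly. Rora, an ROR factor, stood at 592, 662, 448 and 1010 CPM and was higher than in CD8 T cells (log2 fold 1.95, SE 0.26, edgeR adjusted p = 3.38e-11) and NK cells (log2 fold 2.29, SE 0.41, adjusted p = 3.05e-05), with no call against CD4 T cells (log2 fold 0.69, SE 0.27). Maf showed the same pattern, with log2 folds of 3.00 and 2.52 called against CD8 T and NK cells and -0.65 not called against CD4 T cells. Zbtb16, which encodes the innate-like lymphocyte factor PLZF, had 1, 1, 4 and 64 UMIs, so 29 of its 33 positive cells came from Lrrc25-/- MC38, and it was higher than in CD8 T cells (log2 fold 7.21, SE 0.73, adjusted p = 3.13e-20). Sox13 gave only 3 UMIs and Ccr6 1, too few to describe.

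Other secreted factors and homing genes were read on lists of 20 and 19 genes. Areg, for the epidermal growth factor ligand amphiregulin, stood at 276, 221, 74.6 and 895 CPM in WT B16F10, Lrrc25-/- B16F10, WT MC38 and Lrrc25-/- MC38, and 53 of its 200 UMIs came from 1 cell. It was higher than in CD8 T cells (log2 fold 2.46, SE 0.33, edgeR adjusted p = 2.01e-11) and NK cells (log2 fold 5.14, SE 0.48, adjusted p = 2.46e-13); the call against CD4 T cells (log2 fold 1.02, adjusted p = 0.0468) was lost in the 4-library fit, with the DESeq2 Wald test, with no filter on low counts and at a minimum of 1000 UMIs per cell. Furin, a proprotein convertase, was higher than in CD8 T cells (log2 fold 3.03, SE 0.34) and NK cells (log2 fold 3.10, SE 0.39). Penk, the enkephalin precursor, and Ccl1, a chemokine, had 0 UMIs, which is at least 14.5-fold and 14.3-fold lower than in CD8 T cells. Cd69, an activation and retention marker, was called higher against all 3 classes (log2 folds 1.63, 1.44 and 2.08). With no library block, Areg kept only its call against NK cells, and Furin and Cd69 lost all of theirs. Ccr7, the lymph node homing receptor, was lower than in CD8 T cells (log2 fold -5.14, SE 0.52, edgeR adjusted p = 2.05e-20) and CD4 T cells (log2 fold -5.24, SE 0.50, adjusted p = 1.61e-06), with 5 UMIs in 4 cells.

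Inhibitory and costimulatory receptors were read on a list of which 16 genes were tested against CD8 T cells. Of these, 10 were lower than in CD8 T cells, where 2.54% of all genes tested were lower, and 1, Icos, was higher (2.59% of all genes). Against CD4 T cells 6 of 11 tested were lower (2.15% of all genes), and against NK cells 2 of 7, Icos and Pdcd1, were higher (4.09% of all genes). With no library block the lower genes were 2 (Lag3 and Tnfrsf4) against CD8 T cells and 1 (Tnfrsf4) against CD4 T cells, and with the DESeq2 Wald test 9 and 5. Neither call against NK cells held with no library block, and Pdcd1 alone was called there with the DESeq2 Wald test. Lag3, an exhaustion receptor, had 1 UMI in the 114 cells (2.86 CPM, against 181 in CD8 T cells and 71.8 in CD4 T cells), and Tnfrsf4, the costimulatory receptor OX40, had 2 (5.72 CPM, against 164 and 498). Ctla4 was lower than in CD8 T cells (log2 fold -2.36, SE 0.43, edgeR adjusted p = 3.60e-06) and CD4 T cells (log2 fold -3.71, SE 0.39, adjusted p = 4.63e-06). Cd5, a receptor that dampens antigen receptor signals, was lower by log2 folds of -3.62 and -4.89 in the same comparisons. Icos stood at 513, 620, 323 and 397 CPM, above CD8 T cells in every library (148 to 281) and on both sides of CD4 T cells (402 to 564). Its call against CD8 T cells (edgeR adjusted p = 0.0321) was lost with no library block, with the DESeq2 Wald test and with no filter on low counts. That call was also lost with the Trdc gate, with marked doublets removed and without Lrrc25-/- B16F10 in the 4-library fit.

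On the interferon-gamma and cytotoxic list, against CD8 T cells 10 of 21 were lower, where 2.54% of all genes tested were, and 0 higher (median log2 fold -0.96). Against NK cells 7 of 18 were lower, where 2.32% of all genes tested were, and 0 higher (median -1.20). Against CD4 T cells 7 of 16 were higher, where 2.63% of all genes tested were, and 0 lower (median 1.29). With no library block none of the list was called against CD8 T or NK cells (0 of 21 and 0 of 18), and 1, Prf1, was higher against CD4 T cells. That fit called only 11, 6 and 8 genes lower in all against CD8 T, CD4 T and NK cells. With the DESeq2 Wald test 3 were lower and 1, Txk, higher against CD8 T cells, 5 higher against CD4 T cells and 5 lower against NK cells. Ccl5, a chemokine of effector lymphocytes, was lower than in CD8 T cells by a log2 fold of -1.71 (SE 0.14, edgeR adjusted p = 4.76e-30), a call lost when either Lrrc25-/- library was left out of the 4-library fit. Ifng itself had 31 UMIs in 13 cells (88.7 CPM), lower than in CD8 T cells (log2 fold -1.79, SE 0.36, adjusted p = 5.19e-05).

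The granule genes of the list rested on few cells. The highest cell for each gene was in Lrrc25-/- B16F10, and it gave 156 of 233 UMIs for Gzmb, 99 of 210 for Nkg7, 17 of 28 for Prf1 and 16 of 20 for Gzma. Without each gene's highest cell, Gzmb fell from 667 to 231 CPM, Nkg7 from 601 to 333, Prf1 from 80.1 to 33.0 and Gzma from 57.2 to 12.0. Against CD4 T cells the call of Prf1 (log2 fold 4.72, SE 0.72, edgeR adjusted p = 0.000368) rests on those 17 UMIs together with 11 spread over 8 cells. Gzmb was not called against any class. Other granzyme genes were not on the list. Pooled over the libraries, Gzmc had 750 UMIs (2146 CPM), against 1086.5 CPM in CD8 T cells, 273 in CD4 T cells and 9316 in NK cells. Gzmd had 117 UMIs (335 CPM), against 455, 20.9 and 2223 CPM in the same classes, and Gzmf had 1 UMI.

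Genes chosen by size among those called the same way in all 3 comparisons, outside the gates and receptor genes, included 5 higher genes that were on none of the lists. Adam12, a metalloprotease, had 30 UMIs in 21 cells and Abi3bp, an extracellular matrix-binding protein, 36 in 20 cells. In the fitted libraries Adam12 had 0 UMIs in CD8 T and NK cells, and Abi3bp 0 in CD4 T cells. They could enter those fits only through the gamma-delta T cells. Ppp1r14c, a phosphatase inhibitor, had 55 UMIs in 25 cells, and St3gal3, a sialyltransferase, 81 in 38 cells. In the fitted B16F10 and MC38 libraries, CD4 T cells held 0 and 1 Adam12 UMIs and 0 and 2 of Ppp1r14c. NK cells held 0 and 2 of Abi3bp and 0 and 9 of Ppp1r14c, and CD8 T cells 1 and 1 of Abi3bp. Entry into those fits also rested on the gamma-delta T cells, so the calls of Adam12, Abi3bp and Ppp1r14c are partly set by the filter on low counts. Cxcl10, the interferon-induced chemokine, stood at 158, 462, 473 and 646 CPM in WT B16F10, Lrrc25-/- B16F10, WT MC38 and Lrrc25-/- MC38, with log2 folds of 3.30, 2.52 and 3.54 (SE 0.33, 0.35 and 0.40) against CD8 T, CD4 T and NK cells. The 5 genes lower in all 3 were Snx9, a sorting nexin (mean log2 fold -3.48), Nop56, of ribosomal RNA processing (-2.18), Mt1, a metallothionein (-1.87), the interferon-responsive AW112010 (-1.64) and the histone gene H2afz (-1.46). Each of these 5 lost at least 1 of its 3 calls under an alternative, as did Cxcl10 against NK cells and St3gal3 against CD4 T and NK cells without Lrrc25-/- MC38.

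The members were not uniform. With 7 IL-17 genes (Il17a, Il17f, Il23r, Il1r1, Cd163l1, Blk, Zbtb16) and 8 cytotoxic genes (Gzma, Gzmb, Prf1, Ifng, Tbx21, Eomes, Klrd1, Klrc1), 61 of 114 cells had 2 or more UMIs of the first set only, 24 of the second only, 12 of both and 17 of neither. These groups are set by a cut on summed UMIs and were not tested as cell types. Near the cut, 4 cells had 1 UMI and 5 had 2 UMIs of the IL-17 set, and 19 and 3 of the cytotoxic set. At least 2 IL-17 UMIs were found in 7 of 11 cells of WT B16F10 (63.6%, exact interval 30.8% to 89.1%), 22 of 32 of Lrrc25-/- B16F10 (68.8%, 49.99% to 83.9%), 5 of 13 of WT MC38 (38.5%, 13.9% to 68.4%) and 39 of 58 of Lrrc25-/- MC38 (67.2%, 53.7% to 79.0%). These intervals overlap across all 4 pools.

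**Figure D3:**
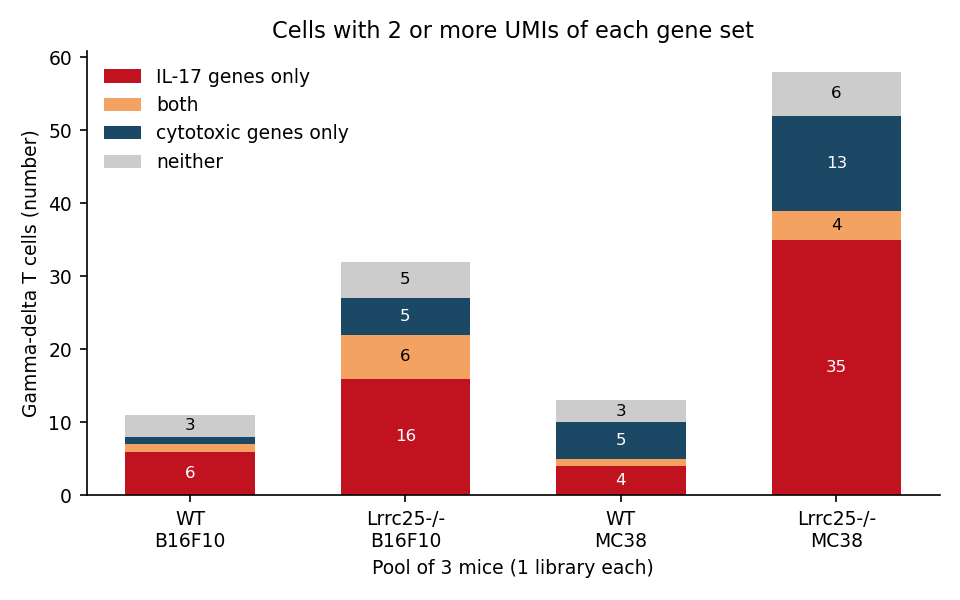
Number of gamma-delta T cells (y axis) in each pool (x axis) with 2 or more UMIs of the 7 IL-17 genes only, of the 8 cytotoxic genes only, of both or of neither. Cells with IL-17 genes only were 6, 16, 4 and 35 of the 11, 32, 13 and 58 cells.

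Genes outside both sets differed between these cells, given here as description. Trdv4 had 130 of its 142 UMIs in the 61 cells with the IL-17 set only (36 of 61 cells) and 1 in the 24 cells with the cytotoxic set only. Cxcr6, a tissue-homing chemokine receptor, stood at 574 CPM in the former and 42.5 in the latter, and Igf1r at 1418 and 31.9. In the other direction Ccl5 stood at 29.3 and 2370 CPM, Nkg7 at 52.7 and 1754, Xcl1 at 5.86 and 712, and Fcer1g, a signaling adaptor shared with NK and myeloid cells, at 322 and 1275. Most of the 165 Nkg7 UMIs in the 24 cells came from 1 cell, the highest Nkg7 cell described above. Tcrg-C1 stood at 715 and 106 CPM and Tcrg-C4 at 58.6 and 191. Areg had 167 UMIs in the IL-17 cells, 32 in the cells with both sets, 1 in the cells with the cytotoxic set only and 0 in the cells with neither.

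Trdv4 tracked the same division. Of the 43 cells with a Trdv4 UMI, 88.4% had Cd163l1 (exact interval 74.9% to 96.1%), 74.4% Il23r (58.8% to 86.5%), 72.1% Il17a (56.3% to 84.7%) and 60.5% Il1r1 (44.4% to 75.0%). In the 71 cells without it the shares were 31.0%, 23.9%, 23.9% and 9.86%. For Gzmb they were 20.9% and 26.8%, with overlapping intervals. Median depth was 2758 UMIs per cell with Trdv4 and 2540 without. The cells pool 4 libraries, and 28 of the 43 came from Lrrc25-/- MC38.

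**Figure D4:**
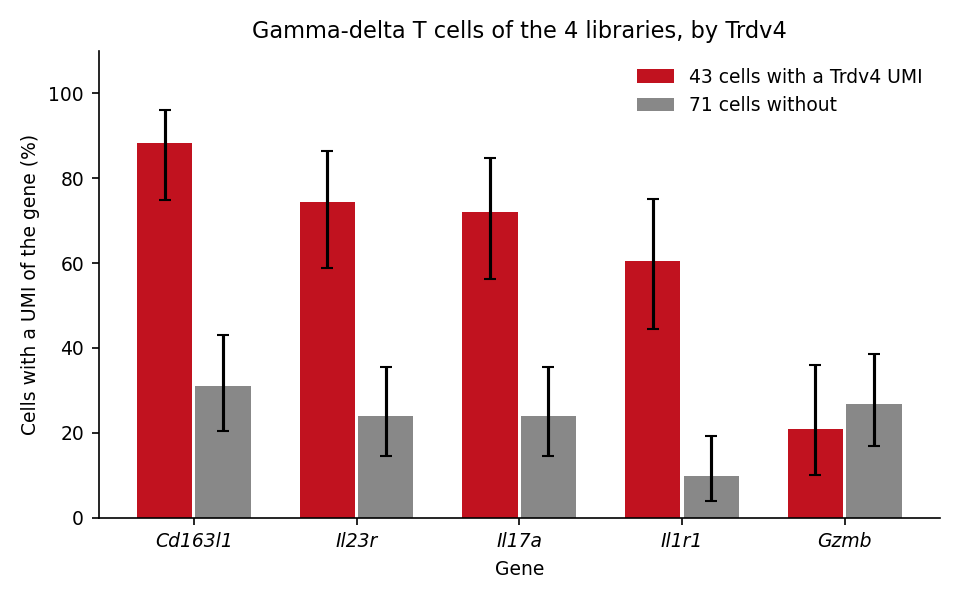
Share of gamma-delta T cells with at least 1 UMI of 5 genes (y axis, percent), among the 43 cells with and the 71 cells without a Trdv4 UMI, pooled over the 4 libraries; bars start at 0 and error bars are exact 95% binomial intervals. Cd163l1, Il23r, Il17a and Il1r1 differ beyond their intervals (88.4% against 31.0% for Cd163l1), and Gzmb does not.

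Markers of other cells were also present. Summed over 10 macrophage markers, the members had 4104, 4161, 2288 and 1711 CPM in WT B16F10, Lrrc25-/- B16F10, WT MC38 and Lrrc25-/- MC38, within the 1309 to 6232 of CD8 T cells, with 0 of 10 markers at 0; 3 of the 10 are the C1q genes that the rule limits. The 13 NK and innate lymphoid markers summed to 1105 to 1807 CPM, against 729 to 1292 in CD8 T cells and 3931 to 7168 in NK cells, so 3 of the 4 pools passed the CD8 range. The NK-defining Ncr1 had 3 UMIs, while Fcer1g had 225 and Tyrobp 189. Outside the gate genes, 3 of 8 tested (Tyrobp, Fcer1g and Klra7) were called higher than in CD8 T cells and 0 lower. Of all genes tested, 2.59% were higher there. Against CD4 T cells 1 of 4, Klre1, was higher (2.63%), and against NK cells 8 of 8 were lower (2.32%). With no library block only Klra7 against CD8 T cells and Klra4 and Klra8 against NK cells were called. Melanoma markers summed to 631 and 578 CPM in the 2 B16F10 pools and 0 in the MC38 pools. The 7 neutrophil markers reached 956 CPM in Lrrc25-/- B16F10, where 1 cell held 45 of 46 S100a9 UMIs. Carcinoma markers were at 0 for 5 of 5 genes, as were 4 of 6 B cell markers, among them Cd79a, Ms4a1 and Igkc. The B cell list still summed to 78.9, 94.6, 99.5 and 31.8 CPM, within the 7.96 to 114 of CD8 T cells, from 19 UMIs of Ighm and 2 of Cd79b. Of 6 fibroblast and endothelial markers 4 were at 0, and the list summed to 0, 116, 224 and 169 CPM, against 27.9 to 152 in CD8 T cells. Pecam1, an adhesion molecule of endothelial cells and some leukocytes, had 50 UMIs in 33 cells and was higher than in CD8 T cells (log2 fold 2.02, SE 0.46, edgeR adjusted p = 0.000524). The part of these transcripts in the results above was not tested.

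For genotype and for tumor model there was 1 pool per group and fewer than 20 cells in both WT pools, so no test was made and values are given with counting intervals. Gamma-delta T cells were 11 of 536 CD3+ cells in WT B16F10 (2.05%, exact 95% interval 1.03% to 3.64%), 32 of 1333 in Lrrc25-/- B16F10 (2.40%, 1.65% to 3.37%), 13 of 895 in WT MC38 (1.45%, 0.776% to 2.47%) and 58 of 1472 in Lrrc25-/- MC38 (3.94%, 3.01% to 5.06%). The Lrrc25-/- to WT ratio of these shares was 1.17 (0.575 to 2.57) in B16F10 and 2.71 (1.47 to 5.40) in MC38. With each cell thinned to 1000 UMIs the ratios were 0.711 (0.300 to 1.81) and 4.28 (1.52 to 16.7), so the direction turned in B16F10 and not in MC38. The median depth of CD3+ cells was 4811.5, 2906, 4400 and 3746.5 UMIs in the 4 libraries. Of all kept cells the members were 0.112%, 0.260%, 0.0752% and 0.347%, shares that the CD45 selection and the number of other cells also set.

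**Figure D5:**
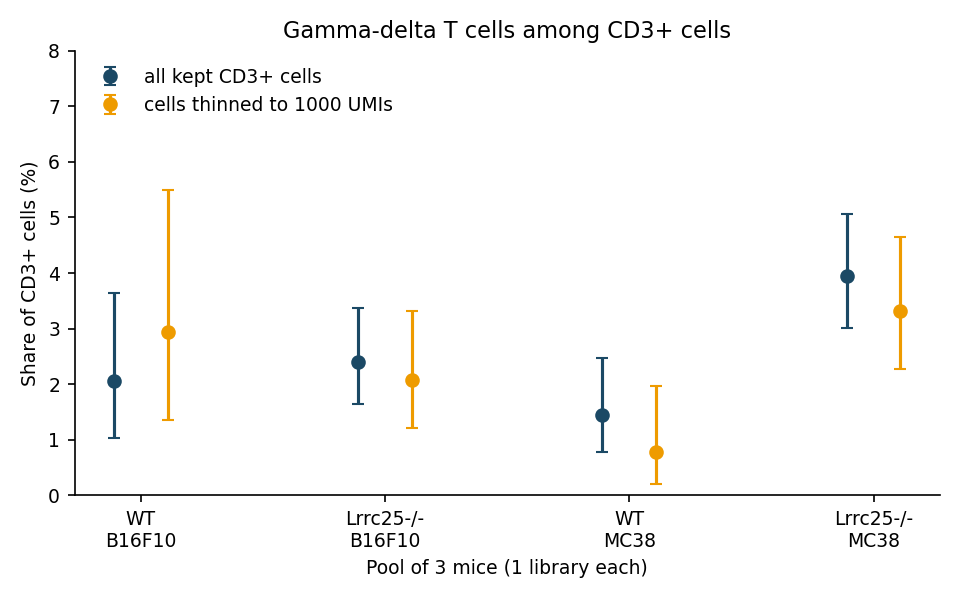
Gamma-delta T cells as a percent of CD3+ cells (y axis) in each pool of 3 mice (x axis), with all kept cells and with cells thinned to 1000 UMIs; error bars are exact 95% binomial intervals for counting error. The MC38 pools stand at 1.45% and 3.94% unthinned, and the B16F10 pools at 2.05% and 2.40% with overlapping intervals.

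Within MC38, most measured genes of the IL-17 program stood higher in the Lrrc25-/- pool of 58 cells than in the WT pool of 13. A gene counted as measured with 20 or more UMIs over the 2 pools, and as higher or lower when its CPM, with 10 CPM added to each, differed 2-fold or more. By this rule, 14 of the 20 measured genes of the list were higher and 0 lower, where 14.9% of 2139 genes were higher and 4.96% lower. The Lrrc25-/- pool held 188800 UMIs against 40209, so a gene could count as measured through that pool alone, as Il1r1 did. Genes of the list occur together in the same cells, so the 14 are not separate results. Il17a stood at 1568 against 497 CPM (ratio 3.15, counting interval 2.0 to 5.24) and Cd163l1 at 551 against 149 (3.69, 1.64 to 10.3). Il1r1 had 92 UMIs against 1 (ratio 19.6, 3.43 to 782). Il17a in the WT pool rested on 2 cells, 19 of its 20 UMIs lying in 1. Of the 10 measured interferon-gamma and cytotoxic genes, Ifng was higher and Gzmb and Xcl1 lower.

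Within B16F10, 6 of 14 measured IL-17 program genes were at least 2-fold higher in the Lrrc25-/- pool, among them Il22, whose 21 UMIs there lay in 1 cell, and 1, Blk, was lower, where 14.2% of 797 genes were higher and 4.89% lower. Here too the Lrrc25-/- pool held more UMIs, 95160 against 25344. Il17a stood at 1576 against 710 CPM (ratio 2.22, interval 1.36 to 3.85) and Cd163l1 at 389 against 395 (0.985, 0.480 to 2.22). Il17a CPM was higher in the Lrrc25-/- pool of both models, from 18 and 25 positive cells against 3 and 2. The highest cell held 59 of the 150 UMIs in Lrrc25-/- B16F10, 86 of 296 in Lrrc25-/- MC38, 8 of 18 in WT B16F10 and 19 of 20 in WT MC38. Without the highest cell of each pool, the levels were 982 against 463 CPM in B16F10 (ratio 2.12, interval 1.10 to 4.57) and 1130 against 26.1 CPM in MC38 (ratio 43.4, 7.70 to 1721), where the WT pool then held 1 UMI. The share of cells with an Il17a UMI was 27.3% (6.02% to 61.0%), 56.2% (37.7% to 73.6%), 15.4% (1.92% to 45.4%) and 43.1% (30.2% to 56.8%) in WT B16F10, Lrrc25-/- B16F10, WT MC38 and Lrrc25-/- MC38, with overlapping intervals within each model.

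Across all genes measured in both models, 19 of 635 were at least 2-fold higher in both Lrrc25-/- pools and 3 lower in both. First among the former by size were the heat shock genes Hspa1a (10 UMIs in WT and 157 in Lrrc25-/- B16F10, 0 and 25 in MC38, with 56 of the 157 in 1 cell) and Dnajb1 (4 and 78, then 1 and 41), followed by Cxcl3, Krt83 and Kdm6b, a histone demethylase. In CD8 T cells Hspa1a did not share that direction, with log2 differences of -0.40 in B16F10 and -0.18 in MC38. Xcl1, a chemokine for cross-presenting dendritic cells, was lower in both, at 868 and 116 CPM in B16F10 and 920 and 371 in MC38 (WT, then Lrrc25-/-), and 21 of the 22 UMIs in the WT B16F10 pool came from 1 cell. Cd7 and Ndufb7 were the other two.

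Between tumor models, 36.4% of 2397 genes were at least 2-fold higher and 8.68% lower in MC38 in the Lrrc25-/- pools, and 22.2% and 24.8% of 451 in the WT pools. Malat1, a nuclear noncoding RNA, stood at 829 and 1219 CPM in the B16F10 pools and 11017 and 11652 in the MC38 pools, with log2 differences of 3.27 in CD8 T cells of WT and 3.19 in those of Lrrc25-/- mice. The median mitochondrial share of the members was 0.730% and 0.995% in B16F10 and 2.86% and 2.07% in MC38, and Xist UMIs were found in the MC38 pools alone (231 UMIs), so model, day, library handling and host sex cannot be told apart. Within these limits Il17a was nearly level between models in the Lrrc25-/- pools (ratio 0.995, interval 0.814 to 1.22). Il23r was higher in MC38 (ratio 5.57, 3.39 to 9.77) and Igf1r too (6.30, 3.90 to 10.8), and both were also higher in the WT pools (14.5, 2.35 to 597, and 5.67, 1.36 to 50.4). Cxcr6 was lower in MC38 in both genotypes, at 1105 and 809 CPM in B16F10 against 99.5 and 222 in MC38 (WT, then Lrrc25-/-).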

How the data were processed

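Barcode, gene and count matrices of 4 droplet 3′ libraries were deposited by the authors as raw UMI counts; mm10 is the build named in the submitters' processing notes; the aligner is not given in the labels used here. Cells were kept and gated by the UMI rules above, with all 32285 genes matched between libraries by Ensembl identifier. Counts were summed per library and class and tested with edgeR 4.0.16 (R 4.3.3; TMM scaling, filterByExpr, quasi-likelihood F test, Benjamini-Hochberg adjustment). On simulated counts of well-captured genes the CD8 fit recovered 90% of 4-fold and 25% of 2-fold changes, the CD4 fit 99% and 41%, and the NK fit 86% and 10%. DESeq2 1.42.0 was an alternative. Doublets were kept; Scrublet (scanpy 1.11.5) scores marked 4.90% to 8.64% of cells per library, including 2 of the 114. Libraries under 20 cells of a class stayed out of its fit, so genotype and model fits were not run. Nothing in the labels says that pools were repeated. The library block takes out the level of each pool, so p-values do not measure the spread between pools. They rest on how class differences varied between 2 pools, with 1 residual degree of freedom and dispersion shared across genes. The members and gene lists were chosen with earlier results of these data known. Named genes were all genes of the lists, plus the 15 highest and 10 lowest by mean log2 fold among genes called alike in the 3 class comparisons with at least 50 CPM, plus the 5 highest and 5 lowest by the 2-fold rule in both models or genotypes. Themis, Gzmc, Gzmd, Gzmf, Malat1 in other cells, Xist and Lrrc25 were added after their values were seen.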

Additional observations from a re-analysis of the deposited data

Results flagged for a closer look

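For 2 genes the Lrrc25-/- to WT difference ran in opposite directions in the 2 tumor models, each from 1 pool per group, and the difference between models was not tested. Gzmb, the granule protease granzyme B, had a log2 difference of 4.52 in B16F10 (2 UMIs in WT and 193 in Lrrc25-/-) and -2.12 in MC38 (19 and 19 UMIs, from 13 and 58 cells). In Lrrc25-/- B16F10 156 of the 193 Gzmb UMIs lay in 1 cell. Blk, the Src-family kinase of the IL-17 program, had a log2 difference of -1.23 in B16F10 (11 and 17 UMIs, ratio 0.412, counting interval 0.182 to 0.972) and 2.23 in MC38 (3 and 73 UMIs, ratio 5.18, interval 1.70 to 25.7).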

How the results depend on the processing

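No paired analysis was possible because, between genotypes and between models, each group has only replicate 1. The class comparisons carry the library as a block; with no library block, 46, 23 and 32 genes were called against CD8 T, CD4 T and NK cells in place of 460, 198 and 229. The DESeq2 Wald test called 89 against CD4 T cells and 111 against NK cells, and keeping cells of at least 1000 UMIs gave 119 against CD4 T cells. Against NK cells the gate with Trdc gave 119 and removing marked doublets 97. Leaving out 1 library was possible only in the added 4-library fit, where it gave 189 to 532, 78 to 163 and 86 to 345 genes (without Lrrc25-/- B16F10 237, 100 and 345, and without WT B16F10 118 against CD4 T cells). A gate without Trbc1 or Trbc2 UMIs left too few cells for any fit; it gave shares of CD3+ cells of 0.933%, 0.375%, 0.335% and 0.611% and an Il17a share of 0% in WT MC38, 22.2% in Lrrc25-/- MC38 and 31.8% over all. Thinning gave a share of 0.775% in WT MC38 and an Il17a share of 36.7% in Lrrc25-/- B16F10 and 31.2% over all. The 143 single-gene results include some that were not called in the main fit, such as those of Gzmb, and had no call to lose. Of the called ones, 0 reversed under any alternative and 73 lost their call with no library block. The calls of Il17a, Il23r, Cd163l1 and Blk against CD8 T and CD4 T cells held under every alternative run. With no filter on low counts, 196 genes were higher and 303 lower than in CD8 T cells, in place of 232 and 228. The 4-library fit, the fits without 1 library, and the values without a highest cell were chosen after seeing the data. The genotype and model fits and their alternatives were not run, because the WT pools held 11 and 13 cells; depth limits those pools most.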
